A study of Homo sapiens with 16 samples.

Results

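The cereblon ligase and the proteins that act with it were described here through 9 genes, chosen by name: CRBN, DDB1, CUL4A, CUL4B, RBX1, IKZF1, IKZF3, BSG and KLF2. They were 9 of the 18417 genes that had a probe set of their own, each was read by 1 probe set, and 9 of 9 were bright enough to be among the 12639 genes tested. Of each of 4 human lines (RPMI8226, KMS-11, U266, IM-9) parental cells spent 24 h at 20% oxygen and hypoxia-resistant (HR) cells 24 h at 1% oxygen before RNA was taken, with 2 arrays for each of the 8 groups and 16 arrays in all. The HR cells are named RPMI8226-HR, KMS-11-HR, U266-HR and IM-9-HR, and each is set here against its own parental line. How they were derived is not given in the sources used here, and neither are genotypes or alleles. No group received a drug according to the labels. Since every HR sample came from 1% oxygen and every parental sample from 20%, the resistant state and the oxygen at harvest cannot be told apart in any comparison. Whether a group's arrays stem from different cultures is not stated by any label, so p-values within a line rest on the spread between these arrays, which may be technical.

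The labels call all 4 lines myeloma-derived, while IM-9 is commonly catalogued as a lymphoblastoid B cell line carrying Epstein-Barr virus. Of 10 plasma cell markers, 7 or 8 lay above 6.27, the median of all values and the level used to call a gene bright, in every group. Of 9 measured B cell markers, 9 lay above it in parental IM-9 and 8 in IM-9-HR, against 5 in both RPMI8226 groups, 3 in both KMS-11 groups, 3 in parental U266 and 1 in U266-HR. Myeloid markers lay above it in 0 of 8 cases in each group, T and NK cell markers in 2 or 3 of 9 and stromal markers in 1 to 3 of 10. Arrays of 1 group correlated across genes at r from 0.993 to 0.996, while r between lines was 0.915 to 0.948.

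Cereblon, the product of CRBN, is the substrate receptor of a ubiquitin ligase. The adaptor DDB1 holds it to a cullin scaffold, CUL4A or CUL4B, and the RING protein RBX1 brings the ubiquitin-charged enzyme to the other end of the cullin. Thalidomide, lenalidomide and pomalidomide bind cereblon and make the ligase take up IKZF1 (Ikaros) and IKZF3 (Aiolos), zinc finger transcription factors that myeloma cells need and that keep IRF4 and MYC active. Cereblon also acts as a chaperone for basigin, the product of BSG, which carries the lactate transporter MCT1 to the cell surface. KLF2 is a transcription factor that, with the histone demethylase KDM3A, supports IRF4 expression in myeloma cells. The arrays measure RNA, and cereblon acts on proteins, so the values below do not read ligase activity.

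Since the comparison contrasts 2 oxygen levels, the promoters of the 9 genes were searched for the core of the hypoxia response element, the letters that hypoxia-inducible factors bind. RefSeq promoters (GRCh38.p14) were found for 8 of the 9 genes, CRBN, IKZF1, DDB1, CUL4A, CUL4B, RBX1, BSG and KLF2, with 18 start sites. The search covered the 250 bases before each start on both strands, for ACGTG or GCGTG. At least 1 match stood before 10 of the 18 starts, and before the first start of 3 of the 8 genes, while 43.2% of all 35116 RefSeq windows of this length held one. Some windows of a gene overlap, so the starts are not independent of each other. Printed below are 4 windows: that of CRBN, whose HR arrays lay above the parental arrays in all 4 lines, those with the most matches among the 8 genes, BSG and RBX1, and that of KLF2, which held 0 matches. Capitals mark the matches, on the gene's strand or, read as CACGT or CACGC, on the opposite strand.

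CRBN, first start, chr3:3179718-3179967, minus strand: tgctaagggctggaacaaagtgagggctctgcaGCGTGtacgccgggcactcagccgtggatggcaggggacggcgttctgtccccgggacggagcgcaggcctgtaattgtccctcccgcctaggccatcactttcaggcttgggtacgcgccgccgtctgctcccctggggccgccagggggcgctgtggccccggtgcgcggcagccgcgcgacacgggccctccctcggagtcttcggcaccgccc
BSG, second start, chr19:572346-572595, plus strand: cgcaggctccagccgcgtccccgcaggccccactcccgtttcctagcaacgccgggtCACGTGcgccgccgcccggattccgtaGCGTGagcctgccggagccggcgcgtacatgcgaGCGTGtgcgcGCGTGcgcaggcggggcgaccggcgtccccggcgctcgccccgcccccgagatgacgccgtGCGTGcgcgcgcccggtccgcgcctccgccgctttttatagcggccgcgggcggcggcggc
RBX1, chr22:40951128-40951377, plus strand: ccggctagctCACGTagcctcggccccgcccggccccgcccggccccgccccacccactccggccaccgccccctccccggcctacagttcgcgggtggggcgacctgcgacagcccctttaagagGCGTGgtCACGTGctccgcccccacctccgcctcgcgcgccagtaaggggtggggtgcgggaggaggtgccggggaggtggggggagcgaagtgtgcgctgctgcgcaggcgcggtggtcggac
KLF2, chr19:16324576-16324825, plus strand: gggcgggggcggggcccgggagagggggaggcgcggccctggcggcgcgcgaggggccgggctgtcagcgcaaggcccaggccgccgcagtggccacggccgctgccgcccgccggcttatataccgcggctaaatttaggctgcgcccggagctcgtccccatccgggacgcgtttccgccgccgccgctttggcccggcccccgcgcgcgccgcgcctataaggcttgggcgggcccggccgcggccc

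The CRBN window held 1 match, which begins 217 bases before the start. The second BSG start had 6 matches and the RBX1 start 4, where CACGTG counts once on each strand, and the first BSG start had 0. IKZF1 had 0 matches before any of its 3 starts. A match describes the letters of a window, and the arrays show nothing of whether a factor is bound there.

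CRBN was higher in HR cells of all 4 lines, with no overlap between HR and parental arrays in any of them. On the log2 scale CRBN read 8.57 and 8.61 on the parental RPMI8226 arrays against 8.91 and 8.82 on the HR arrays. In KMS-11 the CRBN arrays read 8.16 and 8.23 against 8.51 and 8.34, and in U266 9.49 and 9.40 against 9.58 and 9.69. In IM-9 they read 8.20 and 8.19 in parental cells and 8.67 and 8.61 in HR cells. HR arrays above parental arrays in 4 of 4 lines were seen for 1.35% of all genes tested; means higher in 4 of 4 lines, overlapping or not, were seen for 5.48%. CRBN rose in IM-9 by 0.44 ± 0.07 (log2, SE, n = 2 arrays a group; 1.36-fold, adjusted p = 0.000459) and in RPMI8226 by 0.27 ± 0.07 (1.21-fold, adjusted p = 0.0142). In KMS-11 the difference was 0.23 ± 0.07 (adjusted p = 0.0687) and in U266 0.20 ± 0.07 (adjusted p = 0.0834), neither past the threshold of 0.05. The F test for a difference between the 4 lines gave an adjusted p of 0.201. With the line as the unit (n = 4 lines), CRBN was 0.29 ± 0.07 higher in HR cells, with an unadjusted p of 0.00833 and an adjusted p of 0.764, so it did not pass. In this fit 0 of 12639 genes passed, 6.27% of them had an unadjusted p under 0.05, and 0.894% had a smaller p than CRBN. The IM-9 call held under every alternative fit run, whereas the RPMI8226 call was lost without parental array 1 (0.25, adjusted p = 0.0665) and without HR array 1 (0.23, adjusted p = 0.0965). These are bulk RNA samples, in which more RNA per cell and more cells of a kind that expresses the gene cannot be told apart.

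**Figure D1:**
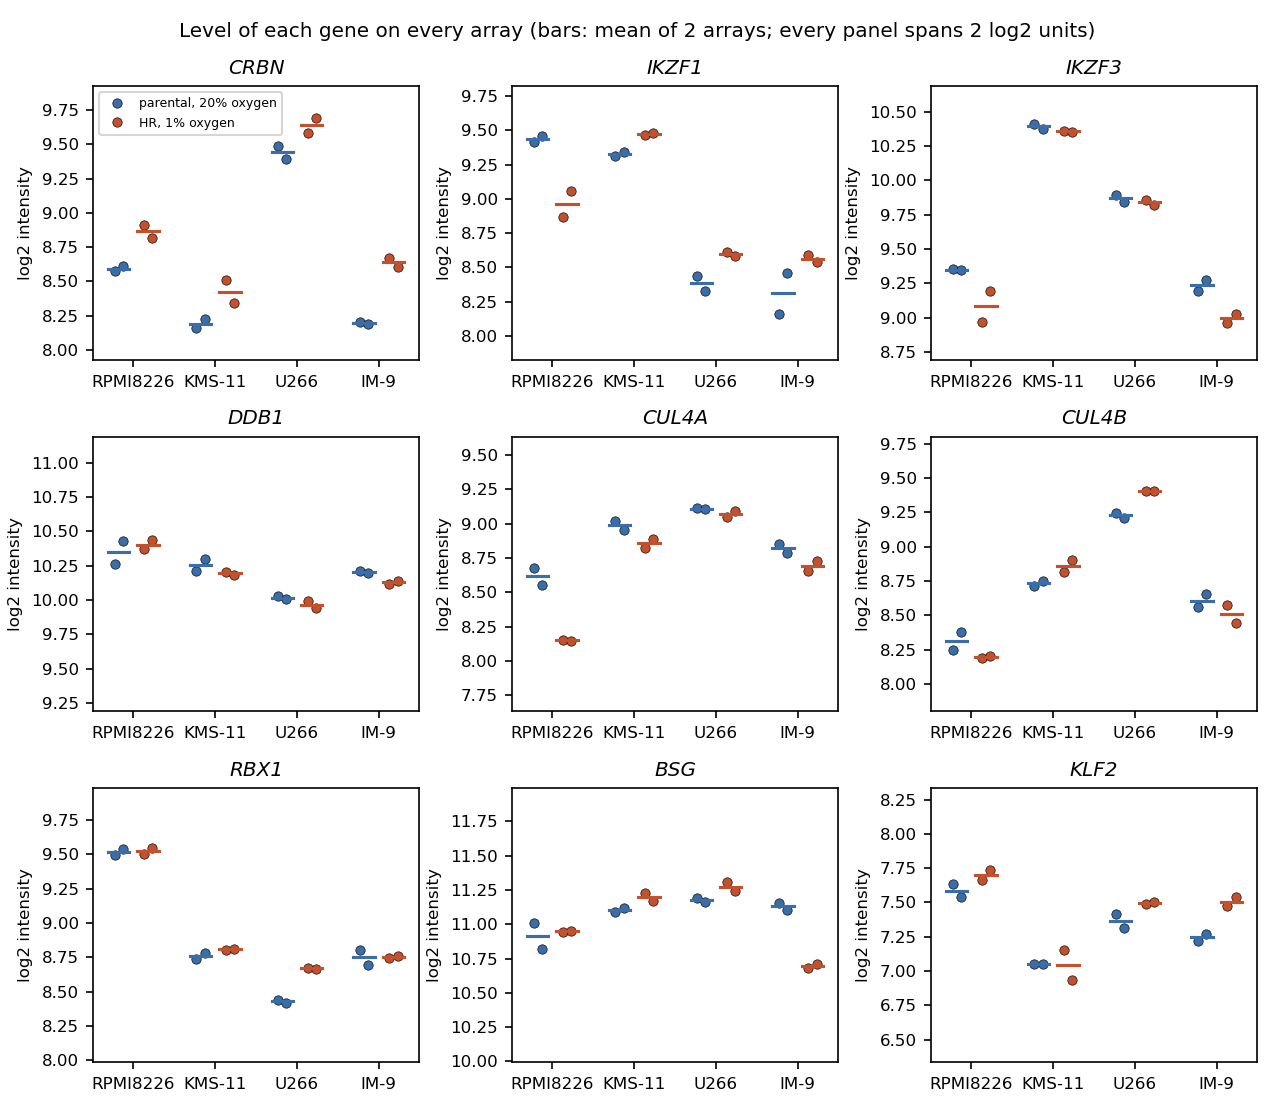
Each panel shows 1 of the 9 genes, with the log2 intensity of every array on the vertical axis and the 4 lines along the horizontal axis; points are arrays, blue for parental cells at 20% oxygen and orange for HR cells at 1%, and bars are means of 2 arrays. The orange CRBN points sit above the blue ones in all 4 lines, while the IKZF1 points do so in KMS-11, U266 and IM-9 and lie below in RPMI8226.

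CRBN differed more between lines than between HR and parental cells of a line. Parental U266 had the highest CRBN level, 9.44, which was 2.38-fold that of parental KMS-11 at 8.19, and RPMI8226 lay between at 8.59. Parental KMS-11 and IM-9 did not differ beyond their spread (8.19 and 8.20, adjusted p = 0.945). Among HR cells the order was U266 at 9.64, RPMI8226 at 8.87, IM-9 at 8.64 and KMS-11 at 8.43, and each neighbouring pair differed (adjusted p from 4.01e-07 to 0.0203). For all 9 genes the F test between the 4 parental lines and that between the 4 HR lines passed, but so did 94.3% and 94.2% of all genes tested. Single pairs of parental lines differed in 76.9% of all genes (RPMI8226 against KMS-11), 79.1% (RPMI8226 against U266), 73.7% (RPMI8226 against IM-9), 66% (KMS-11 against U266), 63.8% (KMS-11 against IM-9) and 66.5% (U266 against IM-9). For HR cells the shares in the same order were 75.9%, 79.4%, 78%, 65.7%, 62.8% and 63.8%.

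The core of the ligase moved little, with 1 exception in each of 2 lines. DDB1, the adaptor, spanned only 9.94 to 10.44 over the 16 arrays. Its differences were 0.06, −0.06, −0.05 and −0.07 (± 0.07 each) in the order RPMI8226, KMS-11, U266, IM-9, used below wherever 4 values follow each other, and 0 of the 4 passed, also at an unadjusted p under 0.05. RBX1 read 8.44 and 8.42 on the parental U266 arrays and 8.67 on both HR arrays, a rise of 0.24 ± 0.06 (adjusted p = 0.0108). That rise did not pass when any 1 of the 4 U266 arrays was left out: adjusted p = 0.0501 without parental array 1, 0.0704 without parental array 2, 0.0662 without HR array 1 and 0.0636 without HR array 2. In the other lines RBX1 differed by 0.0067, 0.05 and 0.0020 (± 0.06), and the first and the last of these, in RPMI8226 and IM-9, turned negative when arrays were centred on their medians (−0.013 and −0.0025). CUL4B, the X-linked cullin, was 0.18 ± 0.07 higher in U266 and 0.13 ± 0.07 higher in KMS-11, and 0.12 ± 0.07 lower in RPMI8226 and 0.10 ± 0.07 lower in IM-9. None of these 4 CUL4B values passed (adjusted p from 0.1 to 0.296), and U266 alone had an unadjusted p under 0.05 (0.024).

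CUL4A, the other cullin, fell in RPMI8226. The parental arrays read 8.68 and 8.56 and both HR arrays 8.15, a fall of 0.47 ± 0.06 (adjusted p = 0.000139). These arrays did not overlap, as for 57.7% of all genes in that line. CUL4A was also 0.13 ± 0.06 lower in KMS-11 and also in IM-9, and 0.04 ± 0.06 lower in U266, and these did not pass (adjusted p = 0.232, 0.138 and 0.741). With the line as the unit CUL4A stood at −0.19 ± 0.09 (adjusted p = 0.764), lower in 4 of 4 lines, and 11% of all genes were lower in 4 of 4. The difference between the lines passed the F test (adjusted p = 0.00722). CUL4A lies on chromosome 13, and its neighbours moved with it in RPMI8226. Among the 20 nearest tested genes, 10 on each side, 11 fell and 0 rose, with a median of −0.29, including the adjacent PCID2 (−0.49) and LAMP1 (−0.69). Over the rest of chromosome 13 in that line, 125 of 214 genes fell and 5 rose, with a median of −0.30, and 27.1% of them were lower than CUL4A. Over all chromosomes 15.3% of genes fell in RPMI8226 and 10.7% rose. The chromosome 13 median was −0.04 in KMS-11 and in IM-9 and 0.0071 in U266. The part of the chromosome in the CUL4A value was not tested, and copy number was not measured on these arrays.

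IKZF1 was the member that moved in opposite directions in different lines. Its RPMI8226 arrays read 9.42 and 9.46 in parental cells and 8.87 and 9.05 in HR cells, a fall of 0.48 ± 0.09 (adjusted p = 0.00171). In IM-9 they read 8.16 and 8.46 against 8.59 and 8.54, a rise of 0.25 ± 0.09 (adjusted p = 0.0468). KMS-11 read 9.31 and 9.34 against 9.47 and 9.48, and U266 read 8.44 and 8.33 against 8.61 and 8.59. These differences, 0.15 ± 0.09 and 0.22 ± 0.09, did not pass (adjusted p = 0.357 and 0.126), although the arrays did not overlap in any of the 4 lines, as for 57.7%, 59.1%, 62% and 65.1% of all genes in these lines. The F test for a difference between the lines passed (adjusted p = 0.00135). Genes called upward in 1 line and downward in another made up 10.8% of all genes. The 2 parental IM-9 arrays lie 0.30 apart, and without parental array 1 the IM-9 value was 0.10 (adjusted p = 0.417); without HR array 1 it was 0.23 (adjusted p = 0.179) and without HR array 2 it was 0.27 (adjusted p = 0.104). The RPMI8226 fall held under all alternatives run, at −0.57 to −0.38 when 1 of its 4 arrays was left out.

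IKZF1 levels split the parental lines in pairs. RPMI8226 (9.44) and KMS-11 (9.33) did not differ beyond their spread (adjusted p = 0.269), nor did U266 (8.38) and IM-9 (8.31; adjusted p = 0.51), and the step between the pairs, KMS-11 over U266, was 1.92-fold (adjusted p = 6.85e-07). In HR cells the first pair came apart, with KMS-11-HR at 9.47 and RPMI8226-HR at 8.96 (adjusted p = 0.00018), while U266-HR and IM-9-HR stayed within their spread (8.60 and 8.56, adjusted p = 0.75). On chromosome 7 in RPMI8226, 1 of the 20 nearest tested genes of IKZF1 fell and 0 rose. Its direct neighbours VWC2 and FIGNL1 stood at −0.08 and −0.10, and 3.74% of the other 589 genes of that chromosome were lower than IKZF1.

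IKZF3 had a lower mean in HR cells of all 4 lines, as did 11% of all genes, and fell in 2 of them. It read 9.35 on both parental RPMI8226 arrays against 8.97 and 9.20 on the HR arrays, a fall of 0.27 ± 0.07 (adjusted p = 0.0159). In IM-9 it read 9.19 and 9.28 against 8.96 and 9.02, a fall of 0.24 ± 0.07 (adjusted p = 0.021). KMS-11 (10.41 and 10.38 against 10.36 and 10.35) and U266 (9.89 and 9.84 against 9.86 and 9.82) differed by −0.04 and −0.03 (± 0.07) and did not pass (adjusted p = 0.808 and 0.845). The F test between lines did not pass (adjusted p = 0.114), so the falls in RPMI8226 and IM-9 are not shown to differ from the values in the other 2 lines. Across lines IKZF3 stood at −0.14 ± 0.08 (adjusted p = 0.764). The RPMI8226 fall was lost without parental array 1 (adjusted p = 0.0587), without parental array 2 (0.0599) and without HR array 1 (−0.15, adjusted p = 0.15). The IM-9 fall was lost without parental array 2 (−0.20, adjusted p = 0.103), without HR array 1 (−0.21, adjusted p = 0.122) and without HR array 2 (−0.27, adjusted p = 0.0508). In RPMI8226 2 of the 20 nearest genes rose and 5 fell, with a median of −0.13 and 15 of 20 lower. The adjacent GRB7 and GSDMB stood at −0.19 and 0.42. In IM-9 1 of the 20 rose and 1 fell, with a median of −0.05 and 15 of 20 lower.

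The values of IKZF1 and IKZF3 are set side by side here, and a difference between the 2 genes was not tested. In RPMI8226 both were lower in HR cells, in IM-9 IKZF1 was higher and IKZF3 lower, and in KMS-11 and U266 IKZF3 hardly differed. IKZF3 levels ran from KMS-11 (10.39 parental) over U266 (9.87) to RPMI8226 (9.35) and IM-9 (9.23), of which the last 2 did not differ beyond their spread (adjusted p = 0.167). IKZF1 and IKZF3 are B lineage genes, so the B cell markers are given beside them. Of 9 tested B cell markers 1 rose and 3 fell in RPMI8226 and 1 rose and 3 fell in IM-9, against 1 rise in KMS-11 and 1 fall in U266. Over all genes 10.7% rose and 15.3% fell in RPMI8226, and 14.4% rose and 21.3% fell in IM-9. In KMS-11 2.44% of all genes rose, and in U266 8.42% fell. Their mean level went from 7.07 in parental RPMI8226 to 6.60 in RPMI8226-HR and from 9.31 in parental IM-9 to 8.87 in IM-9-HR, from 6.01 to 6.04 in KMS-11 and from 5.65 to 5.58 in U266. In RPMI8226 the mean and the median differ in sign: the median change of the list was 0.10, and the lower mean rests largely on CR2 (8.26 to 4.68) and FCER2 (9.32 to 8.01), while MS4A1 was higher in HR cells (9.50 to 10.19). In IM-9 the median change was −0.17, and CR2 went from 7.98 to a level under 6.27. CD22 went from 10.41 to 9.11 there and CD79A from 9.68 to 9.09, while CD83 was higher in IM-9-HR (7.73 to 8.16). The part of such a shift in the IKZF1 and IKZF3 values was not tested.

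**Figure D2:**
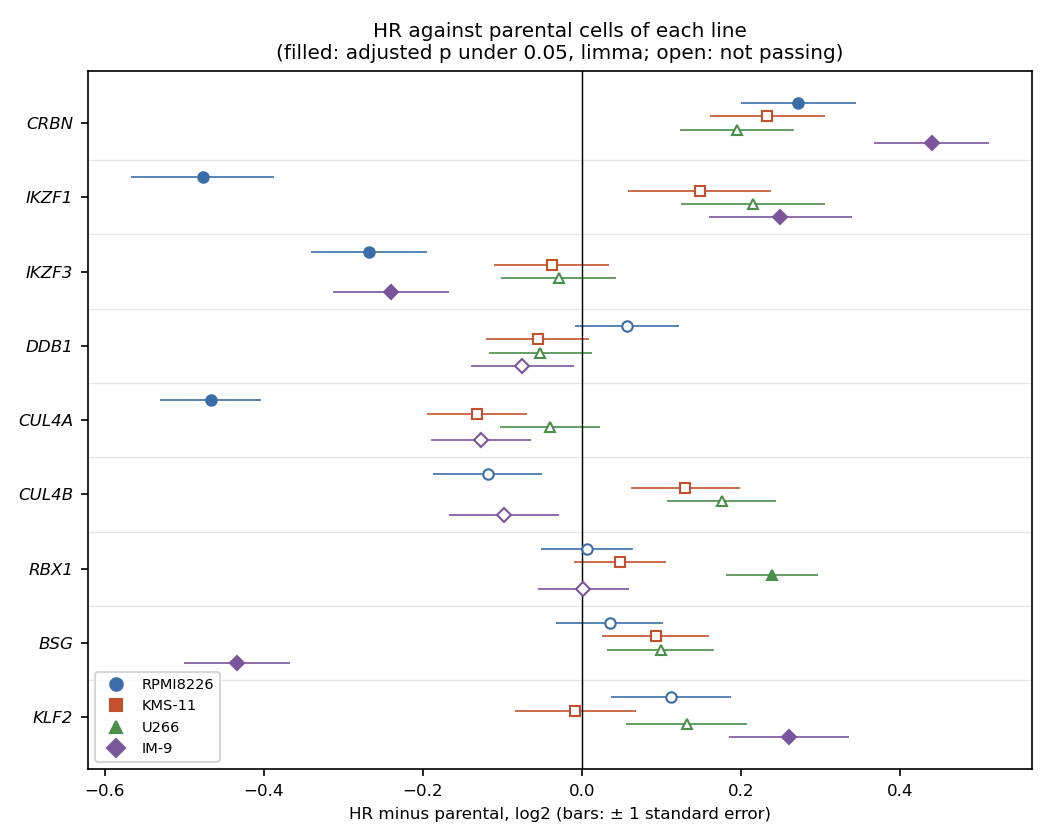
The difference HR minus parental (log2, horizontal axis) is drawn for each of the 9 genes in each line, with bars of 1 standard error; filled symbols passed an adjusted p of 0.05 and open symbols did not. The 4 CRBN symbols lie between 0.20 and 0.44, the 4 DDB1 symbols between −0.07 and 0.06, and the RPMI8226 symbols of IKZF1 and CUL4A at −0.48 and −0.47.

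IRF4 and MYC, the genes that IKZF1 and IKZF3 keep active in myeloma cells, went the same way as them in some lines and not in others. IRF4 read 10.58 and 10.55 in parental RPMI8226 and 10.94 and 10.92 in RPMI8226-HR, a rise of 0.36 ± 0.06 (adjusted p = 0.000416), in the line where IKZF1 and IKZF3 fell. It also rose in U266 by 0.34 ± 0.06 (10.48 and 10.44 against 10.78 and 10.82, adjusted p = 0.001). It fell by 0.30 ± 0.06 in KMS-11 (adjusted p = 0.00636) and by 0.18 ± 0.06 in IM-9 (adjusted p = 0.0227). MYC fell by 0.77 ± 0.06 in IM-9, from 10.77 on both parental arrays to 10.00 and 10.01 (adjusted p = 9.03e-07), and rose by 0.55 ± 0.06 in U266, from 6.67 and 6.71 to 7.19 and 7.28 (adjusted p = 2.51e-05). In RPMI8226 and KMS-11 MYC differed by −0.13 and −0.01 (adjusted p = 0.12 and 0.917). The U266 rise started from a far lower level than in any other line, 17.0-fold under parental IM-9. The F test between lines passed for IRF4 (adjusted p = 3.29e-05) and MYC (adjusted p = 1.01e-06). In IM-9 IRF4 and MYC fell, as IKZF3 did and IKZF1 did not. Both rose in U266, where IKZF1 was 0.22 ± 0.09 higher without passing. A link between these RNA levels was not tested.

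BSG fell in IM-9 and differed little elsewhere. Its IM-9 arrays read 11.16 and 11.10 in parental cells and 10.68 and 10.71 in HR cells, a fall of 0.43 ± 0.07 (adjusted p = 0.000295) that held under all alternatives run. RPMI8226 read 11.01 and 10.82 against 10.95 on both HR arrays, KMS-11 11.09 and 11.12 against 11.22 and 11.17, and U266 11.19 and 11.16 against 11.31 and 11.24. The differences there were 0.04, 0.09 and 0.10 (± 0.07; adjusted p = 0.757, 0.446 and 0.361), and the RPMI8226 arrays overlapped. The F test between lines passed (adjusted p = 0.00132). In IM-9 BSG fell and CRBN, whose product escorts basigin, rose. A link between the RNA levels of BSG and CRBN was not tested. Among parental cells BSG was lowest in RPMI8226, with KMS-11, U266 and IM-9 within their spread of each other (adjusted p from 0.382 to 0.754), and among HR cells it was lowest in IM-9. On chromosome 19 the 19 nearest tested genes of BSG in IM-9 had a median of −0.21; 8 fell, 0 rose and 18 of 19 were lower. GZMM next to it stood at 0.10 and HCN2 on the other side at −0.27. On the rest of chromosome 19 the IM-9 median was −0.10, with 217 of 983 genes falling and 56 rising, and 5.7% of those genes were lower than BSG. In IM-9 21.3% of all genes fell and 14.4% rose. The part of the region in the BSG value was not tested, and copy number was not measured.

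The tested genes around CRBN were counted in the same way. The end of the chromosome leaves 2 tested genes on one side, so 12 neighbours were counted. In IM-9 2 of them rose and 3 fell, with a median of 0.010. TRNT1, beside CRBN, stood at −0.36 in IM-9 and LRRN1 at −0.15. In RPMI8226 5 of the 12 rose and 0 fell with a median of 0.20, and TRNT1 stood at 0.19. On the rest of chromosome 3 in RPMI8226 167 of 675 genes rose and 173 fell, with a median of 0.04. Of these genes 78.7% were lower than CRBN. Over all chromosomes 10.7% of genes rose in RPMI8226 and 15.3% fell. The part of the region in the CRBN values was not tested, and copy number was not measured.

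**Figure D3:**
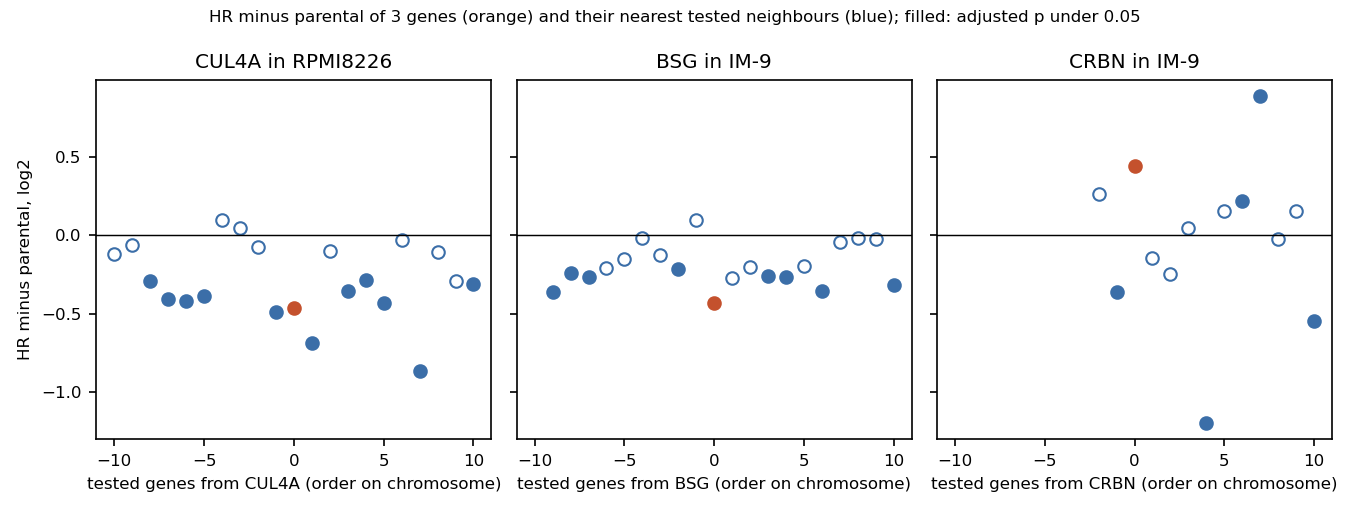
HR minus parental (log2) is plotted for CUL4A in RPMI8226, BSG in IM-9 and CRBN in IM-9 (orange) and for the tested genes beside each in chromosome order (blue), up to 10 on each side; filled points passed an adjusted p of 0.05. Of the blue points 18 of 20 lie below 0 around CUL4A, 18 of 19 around BSG and 6 of 12 around CRBN. The neighbours of CRBN in RPMI8226 are not drawn.

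KLF2 read 6.93 to 7.73 over the 16 arrays, all above the level of 6.27 used to call a gene bright. In IM-9 it read 7.22 and 7.27 in parental cells and 7.47 and 7.54 in HR cells, a rise of 0.26 ± 0.08 (adjusted p = 0.0173). Without parental array 1 the rise was 0.23 (adjusted p = 0.084) and without HR array 2 also 0.23 (adjusted p = 0.106). RPMI8226 read 7.63 and 7.54 against 7.66 and 7.73, and U266 read 7.42 and 7.31 against 7.49 and 7.50, differences of 0.11 ± 0.08 and 0.13 ± 0.08 that did not pass (adjusted p = 0.319 and 0.272). KMS-11 read 7.05 on both parental arrays against 7.15 and 6.93, so its HR arrays lay on either side. KDM3A, the demethylase upstream of KLF2, rose in 4 of 4 lines, as 0.348% of all genes did, by 0.86, 1.32, 1.33 and 1.00 (± 0.08). Its KMS-11 arrays went from 9.01 and 9.04 to 10.35 and 10.34, and KLF2 differed by −0.0080 ± 0.08 there. A link between the RNA levels of these 2 genes was not tested. The KLF2 effects are not shown to differ between lines (F test, adjusted p = 0.218). KLF2 levels were highest in RPMI8226 and lowest in KMS-11, with U266 and IM-9 within their spread of each other in parental (adjusted p = 0.185) and in HR cells (adjusted p = 0.919).

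Counted by line, 4 of the 9 genes changed in RPMI8226 (1 rose and 3 fell), 1 in U266 and 5 in IM-9 (3 rose and 2 fell). In KMS-11 limma called 0 of 9, and 1 of them, CRBN, had an unadjusted p under 0.05. Over all genes the shares called were 26% (10.7% upward, 15.3% downward) for RPMI8226, 8.27% (2.44% and 5.83%) for KMS-11, 18.1% (9.68% and 8.42%) for U266 and 35.7% (14.4% and 21.3%) for IM-9. Of the 9 genes 7 passed in at least 1 line, as did 58% of all genes. The median size of the change, regardless of sign, was 0.118 for the 9 genes against 0.135 for all genes in RPMI8226, 0.093 against 0.104 in KMS-11, 0.132 against 0.117 in U266 and 0.240 against 0.171 in IM-9. The F test between lines passed for 4 of 9 (IKZF1, BSG, CUL4A and CUL4B), where 45.4% of all genes passed. For CUL4B that pass (adjusted p = 0.0411) was lost when any of 12 of the 16 arrays was left out, with adjusted p up to 0.0914. The members' counts thus lay above these shares in RPMI8226 and IM-9 and below them in KMS-11 and U266, from which nothing is read about the 9 genes as a set.

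The genes around the ligase were described in 8 lists. Their counts stand beside the shares of all genes called, and nothing is read from them about a list as a set. These shares were 10.7% rising and 15.3% falling in RPMI8226, 2.44% and 5.83% in KMS-11, 9.68% and 8.42% in U266 and 14.4% and 21.3% in IM-9. Of 9 tested partners of CUL4 and RBX1, 3 fell in U266 and 3 fell and 1 rose in IM-9, while limma called 0 in RPMI8226 and KMS-11, also at an unadjusted p under 0.05. Their medians were −0.02, −0.02, −0.16 and 0.06 in the order of lines above, against −0.01, −0.02, −0.01 and −0.06 over all genes. RNF7, a RING protein related to RBX1, fell in U266 (−0.31 ± 0.06) and IM-9 (−0.16 ± 0.06), and the ubiquitin-conjugating enzyme gene CDC34 fell in the same lines (−0.22 and −0.21, ± 0.07). DDA1, a small DDB1-binding protein, fell by 0.26 in U266. CAND1, which exchanges the receptors of cullins, fell by 0.29 in IM-9, where its relative CAND2 rose by 0.52. The CAND2 mean was under 6.27 in parental IM-9 (5.98) and 6.50 in IM-9-HR. Cullins are switched on by the ubiquitin-like NEDD8 and off by the COP9 signalosome. Of 17 tested genes of these systems 1 rose and 3 fell in RPMI8226, 1 fell in KMS-11, 0 passed in U266 (2 at an unadjusted p under 0.05) and 1 rose and 5 fell in IM-9. The list medians were −0.15, −0.12, −0.02 and −0.15 in the order of lines above, against −0.01, −0.02, −0.01 and −0.06 over all genes. DCUN1D1, a NEDD8 ligase, fell by 0.92 ± 0.11 in RPMI8226, and the COP9 subunit genes GPS1 and COPS7A fell in IM-9 by 0.52 and 0.37. COPS8 fell by 0.42 in RPMI8226, and COPS6 rose by 0.15 in both RPMI8226 and IM-9.

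Cereblon competes with other receptors for DDB1. Of 21 tested receptor genes 1 rose and 5 fell in RPMI8226, 2 rose and 1 fell in U266 and 3 rose and 3 fell in IM-9. In KMS-11 limma called 0, with 6 at an unadjusted p under 0.05. Medians of these receptor genes were −0.05, −0.09, 0.01 and −0.05 in the order of lines above, against −0.01, −0.02, −0.01 and −0.06 over all genes. WDTC1 fell by 0.60 ± 0.10 in RPMI8226, where DCAF4 rose by 0.38, and DTL, the receptor that clears the licensing factor CDT1, rose by 0.60 ± 0.07 in U266. DCAF15, the receptor for sulfonamide degraders such as indisulam, fell in RPMI8226 (−0.20) and IM-9 (−0.30), and DCAF5 fell in RPMI8226 (−0.28) and rose in IM-9 (0.39).

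Other proteins that cereblon takes up in the presence of a drug were listed too. Of 21 tested genes 5 rose and 3 fell in RPMI8226 and 1 rose in KMS-11. In U266 2 rose, and in IM-9 2 rose and 6 fell. Their medians were 0.04, −0.05, 0.00039 and −0.09 in the order of lines above, against −0.01, −0.02, −0.01 and −0.06 over all genes. ZNF654, a zinc finger gene, rose in all 4 lines, by 0.45, 0.82, 1.01 and 0.69 (± 0.07), as did 0.348% of all genes. IKZF2, which encodes Helios, a relative of Ikaros, rose in RPMI8226 (0.32 ± 0.07) and U266 (0.35 ± 0.07), but its means were under 6.27 in both RPMI8226 groups (4.73 and 5.05) and in parental U266 (5.92), and at that level in U266-HR (6.27). ZNF827 rose by 0.58 in RPMI8226 and fell by 0.22 in IM-9, while the chromatin remodelling gene ARID2 fell by 0.53 and ZMYM2, a zinc finger gene on chromosome 13, by 0.41 in RPMI8226. Proteins that bind cereblon without a drug gave 8 tested genes. Of these, 1 rose and 1 fell in RPMI8226, 1 fell in KMS-11, 1 rose in U266 and 1 rose and 3 fell in IM-9. The medians of these 8 genes were −0.12, −0.06, 0.0032 and −0.11 in the same order. GLUL, glutamine synthetase, which cereblon degrades when glutamine is plentiful, rose by 0.80 ± 0.10 in U266 and fell by 0.35 in IM-9. MEIS2, a homeobox gene, fell by 0.47 in KMS-11, PRKAG1, a subunit of the energy sensor AMPK, fell by 0.38 in RPMI8226, and the proteasome subunit gene PSMB4 rose by 0.24 in RPMI8226 and fell by 0.39 in IM-9.

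Of 14 listed partners of basigin and genes of lactate handling, 10 had a probe set of their own and 8 were tested. The gene of MCT1 was not among the 8. Of the 8, 2 rose and 2 fell in RPMI8226 and 2 rose and 1 fell in KMS-11. In U266 2 rose, and in IM-9 3 rose and 1 fell. Their medians were −0.06, 0.01, 0.02 and 0.06 in the order of lines above, against −0.01, −0.02, −0.01 and −0.06 over all genes. The glucose transporter gene SLC2A1 rose in 4 of 4 lines by 1.35, 0.95, 2.23 and 0.58 (± 0.12). LDHA, which makes lactate, rose by 0.37, 0.39, 0.52 and 0.17 (± 0.06). A rise in all 4 lines was called for 0.348% of all genes. BSG did not pass upward in any line, with 0.04, 0.09 and 0.10 in RPMI8226, KMS-11 and U266 and −0.43 in IM-9. SLC16A7, the lactate transporter MCT2, fell in RPMI8226 (−0.29 ± 0.10) and KMS-11 (−0.58 ± 0.10), and NPTN, a relative of BSG, rose by 0.38 in IM-9, the line where BSG fell.

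Genes downstream of IKZF1 and IKZF3 or bound to them gave 19 tested genes. Of these 2 rose and 5 fell in RPMI8226, 2 fell in KMS-11, 4 rose and 1 fell in U266 and 2 rose and 9 fell in IM-9. The medians were −0.05, −0.04, 0.04 and −0.18 in the order of lines above, against −0.01, −0.02, −0.01 and −0.06 over all genes. IRF8, an interferon regulatory factor of B cells, fell by 1.26 ± 0.12 in RPMI8226 and rose by 0.41 ± 0.12 in IM-9. HDAC1, a deacetylase in the complexes that Ikaros recruits, fell by 0.69 ± 0.06 in RPMI8226. IL2RB, an interleukin receptor chain, fell in RPMI8226 (−0.59 ± 0.08) and IM-9 (−0.49 ± 0.08) and rose in U266 (0.61 ± 0.08), and BATF3 fell by 0.61 in IM-9. The IL2RB mean was 6.51 in parental RPMI8226 and under 6.27 in RPMI8226-HR (5.92). Of 15 tested regulators and targets of KLF2, 3 rose and 1 fell in RPMI8226 and 2 rose in KMS-11. In U266 5 rose and 1 fell, and in IM-9 4 rose. Medians of these genes were 0.07, 0.05, 0.09 and 0.07 in the same order. TXNIP, which restrains glucose uptake, rose in 4 of 4 lines, as 0.348% of all genes did, by 0.58, 1.59, 2.62 and 0.65 (± 0.07). ITGB7, an integrin chain, rose in U266 by 1.38 ± 0.11, and CCR7, a homing receptor of lymphocytes, rose in IM-9 by 0.79 ± 0.12. These 2 genes each passed in 1 of 4 lines.

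**Figure D4:**
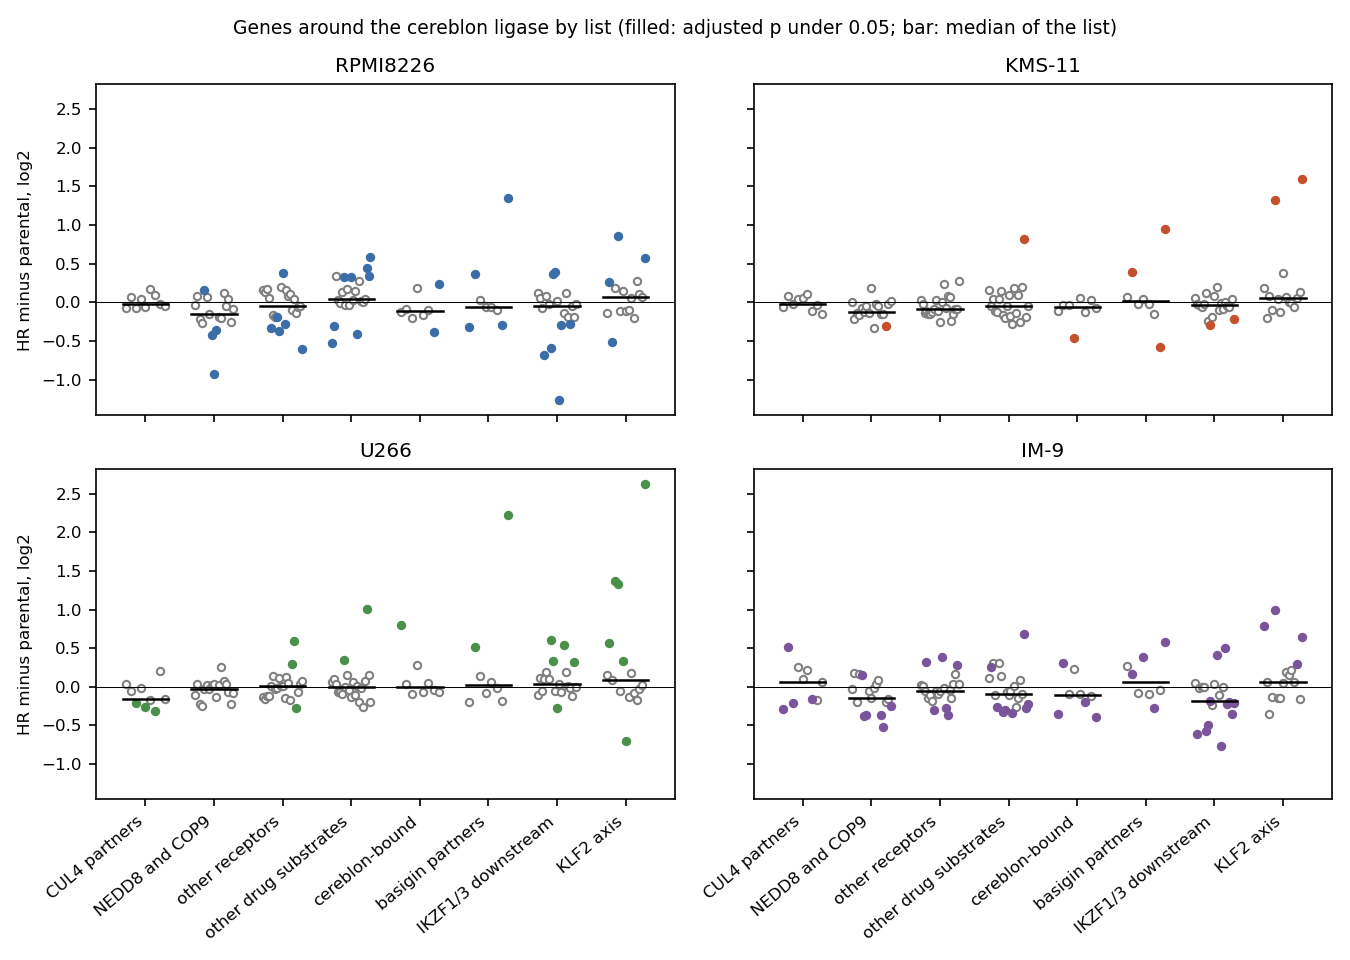
HR minus parental (log2, vertical axis) of every tested gene of the 8 lists is shown in 1 panel for each line; filled points passed an adjusted p of 0.05 and bars mark the median of a list. The highest points in each panel are SLC2A1, TXNIP or KDM3A, in the basigin and KLF2 lists, while the list medians lie between −0.18 and 0.09.

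The genes whose levels over the 8 groups ran most like those of a member were named as a description. The 8 means come from 4 lines, so they share lines and arrays and are not independent points. For CRBN they were H1-10-AS1 (r = 0.987), ESCO1 (0.984) and PNPLA8 (0.979), and for IKZF1 PRPF38A (0.977), CA8 (0.976) and PTPRF (0.970). For IKZF3 they were ARHGEF25 (0.994), PEX19 (0.990) and MAML3 (0.988), and for KLF2 CCDC39 (0.984), ATG2B (0.973) and FAM174B (0.970). None of these 12 was a member or on 1 of the 8 lists.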

How the data were processed

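RNA of 8 groups was read on 16 Affymetrix Gene ST arrays. The deposited values are log2 intensities of 33297 probe sets, already summarised; the submitters' processing notes name Affymetrix Expression Console 1.3.0, while background correction, normalization and genome build are not given in the sources used here. The design text names another Gene ST version than the platform table; names come from that table (19460 probe sets with 1 symbol, 1754 with several, 12083 unlisted), updated by Entrez identifier through RefSeq (GRCh38.p14; 19429 matched). Per gene the probe set with the highest mean was kept. Genes above 6.27 in at least 2 arrays were tested with limma 3.58.1 in R 4.3.3 (lmFit and eBayes, 2-sided, Benjamini-Hochberg over all 12639 genes, threshold 0.05). Within lines, 16 arrays were fitted as 8 groups that share 1 estimate of the spread. Across lines, the 8 means per line and condition were fitted with a block for the line. Moderated F tests compared the 4 HR effects, the parental lines and the HR lines. Errors are standard errors. For arrays, their number limits the precision. RefSeq gene order defined neighbours.

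The 9 genes and the 8 lists around them were chosen with earlier results of these data known. Named from each list are up to 4 genes with the largest change past the threshold and up to 2 that passed the same way in the most lines; for likeness, the 3 tested genes with the highest Pearson r; and the nearest tested gene on each side of a member. Neighbours of DDB1, CUL4B, RBX1 and KLF2 are given with the closing observations. The fits were tested on simulated data. Alternatives were other filters, centring, quantile normalization, array weights, a trended and robust prior, the array number as a block, fits of 1 line alone, and each line or array left out.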

Additional observations from a re-analysis of the deposited data

Results flagged for a closer look

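For 4 of the 9 genes the change from parental to HR cells differed between the 4 lines by limma's F test, which 45.4% of all genes also passed. IKZF1 had an adjusted p of 0.00135, falling in RPMI8226 and rising in IM-9. BSG had an adjusted p of 0.00132, falling in IM-9, while its values in the other 3 lines lay between 0.04 and 0.10. CUL4A had an adjusted p of 0.00722, falling in RPMI8226. CUL4B had an adjusted p of 0.0411, with values above 0 in KMS-11 and U266 and below 0 in RPMI8226 and IM-9. The first 3 passed under every alternative run, with adjusted p of at most 0.00999 for IKZF1, 0.00976 for BSG and 0.0336 for CUL4A. CUL4B did not pass with arrays centred (adjusted p = 0.052), with no filter (0.0756) or when any of 12 arrays was left out (up to 0.0914): both arrays of parental KMS-11, parental U266, RPMI8226-HR and U266-HR, and array 2 of parental RPMI8226, parental IM-9, KMS-11-HR and IM-9-HR.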

How the results depend on the processing

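The calls of CRBN and BSG in IM-9 and of IKZF1 and CUL4A in RPMI8226 were kept under every alternative run. Over the values of the 9 genes, 405 of the alternatives other than leaving out an array kept direction and side of the threshold, 10 lost the call, 7 gained it and 10 turned the sign. CRBN in RPMI8226 was lost with array weights (adjusted p = 0.0612) and with the 4 arrays of the line alone (0.0706). IKZF1 in IM-9 was lost with array weights (0.0524), centred arrays (0.0786), no filter (0.0724) and its 4 arrays alone (0.174). With the 4 arrays of the line alone IKZF3 was lost in RPMI8226 (0.108) and IM-9 (0.0777) and KLF2 in IM-9 (0.0594). CRBN passed in KMS-11 with array weights (0.0277), a trended and robust prior (0.0333) and quantile normalization (0.0407), and in U266 with array weights (0.0447), as did IKZF1 (0.0316) and CUL4B (0.0415) there. The F test passed for IKZF3 with the trended prior (0.0446) and without RPMI8226-HR array 2 (0.0157), and for RBX1 with centred arrays (0.0443) and without parental IM-9 array 2 (0.0382).

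Values that turned sign had not passed. Across lines these were BSG without IM-9 (0.076), CUL4B without KMS-11 (−0.013) or U266 (−0.029), and IKZF1 without IM-9 (−0.038), KMS-11 (−0.0041) or U266 (−0.026). Quantile normalization turned KLF2 in KMS-11 (0.0088) and RBX1 in IM-9 (−0.00078), and centring turned RBX1 in IM-9 (−0.0025) and RPMI8226 (−0.013). Leaving out 1 array gave −0.060 to 0.13 for BSG, −0.024 to 0.14 for DDB1 and −0.018 to 0.031 for RBX1 in RPMI8226, −0.054 to 0.058 for RBX1 in IM-9, −0.12 to 0.10 for KLF2 in KMS-11 and −0.0033 to 0.071 for IKZF1 across lines.

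Counts over all genes moved as follows. Across lines 0 genes passed, against 88 with a random block for each line and condition, 6 with a stricter filter and 1 without RPMI8226. IM-9 had 4506 calls and 2843 from its 4 arrays alone. KMS-11 had 1045, 2083 with array weights and 348 to 401 without 1 array, whichever it was. U266 had 2287 and 1425 to 1532 without 1 array. The cause was not tested.

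The array numbers were not taken as pairs: same-numbered HR and parental arrays deviated together at r = 0.205 for RPMI8226, 0.109 for IM-9, 0.071 for KMS-11 and −0.048 for U266. With the array number as a replicate block 176 genes passed across lines, CRBN among them (adjusted p = 0.0369), IKZF1 in IM-9 did not pass (0.0558), and neither did the F test of CUL4B (0.0742). These block fits count arrays of 1 line as units. The smallest change that passed among the 9 genes was 0.24, and a smaller one without a call is not shown to be absent.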

Other observations

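The nearest tested neighbours of the members not described above had these values, in the order RPMI8226, KMS-11, U266 and IM-9 (HR minus parental, log2). DDB1 lies between VWCE (0.67, −0.0033, −0.05 and −0.17) and TKFC (−0.27, 0.05, 0.10 and −0.36). RBX1 lies between XPNPEP3 (−0.15, −0.05, 0.02 and −0.36) and EP300, a histone acetyltransferase gene (0.00049, 0.04, 0.58 and 0.43). In U266, the line where RBX1 rose, 1 of its 20 nearest tested genes rose and 0 fell. CUL4B lies between LAMP2 (0.06, 0.09, 0.0086 and −0.17) and MCTS1 (0.13, −0.11, −0.16 and −0.18). KLF2 lies between AP1M1 (−0.28, −0.04, 0.04 and −0.07) and EPS15L1 (−0.13, 0.05, 0.09 and −0.23). In IM-9, where KLF2 rose, 1 of its 20 nearest tested genes rose and 4 fell, and 94.8% of the other genes of chromosome 19 were lower than KLF2.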
